A study of Mus musculus with 30 samples.

Results

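The genes described are 10 enzymes that make serine, mitochondrial one-carbon units, asparagine and proline, followed in nuclear RNA of mouse embryonic stem (ES) cells after acute loss of the chromatin remodeler SRCAP. They were chosen by name, are 10 of the 55401 genes in the count tables, and fall into 3 genes of serine synthesis (Phgdh, Psat1, Psph), 4 of mitochondrial one-carbon metabolism (Shmt2, Mthfd2, Mthfd1l, Aldh1l2), 1 of asparagine synthesis (Asns) and 2 of proline synthesis (Pycr1, Aldh18a1). Mthfd2 and Aldh18a1 stood apart from the other members. Their exon counts were lower after 4 h of the auxin indole-3-acetic acid (IAA) in SYAT, wtSRCAP and cdSRCAP cells, and also in CGR8 cells, which carry no degron. Psat1 and Asns were lower in the intron columns after 4 h in CGR8, wtSRCAP and cdSRCAP cells. In the exon columns their treated libraries overlapped with the controls, and the intervals of Asns in wtSRCAP and cdSRCAP cells were wide. Whether intron and exon changes differed was not tested. Phgdh was lower in cdSRCAP than in wtSRCAP cells with and without IAA, a direction that most of the 10 members shared. With 2 replicates a group, 1 of these differences passed the adjusted threshold of the test, that of Aldh18a1 introns in wtSRCAP cells.

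Nuclear RNA-seq was done on 30 libraries in 15 groups of 2 biological replicates, in 4 count tables that were each analysed on their own. CGR8 is the parental mouse ES cell line, and SYAT is 1 homozygous CGR8 clone in which SRCAP carries YPet and an auxin-inducible degron on both alleles, with the plant F-box protein Tir1 expressed from a lentivirus, so that IAA leads to SRCAP degradation. In the CGR8 table, cells with no treatment were set against cells given 500 µM IAA for 4 h. In the time course, SYAT cells kept in the Tir1 inhibitor auxinole (control) were set against SYAT cells after 2 h, 4 h, 6 h and 8 h in 500 µM IAA. In the sorted cells, SYAT cells were treated for 1 h and sorted in early (EG1) or late G1 (LG1), with auxinole as control. In the fourth table, SYAT cells expressed doxycycline-induced wild-type SRCAP (wtSRCAP) or catalytically dead SRCAP (cdSRCAP) fused to mCherry, 1 clone each, after 24 h of doxycycline at 1 µg/mL, with auxinole or with 4 h of IAA. Auxinole is given as 200 nM in the sample labels and as 200 µM in the study's methods. All cells were in serum and LIF medium with nonessential amino acids. The controls of SYAT-derived cells differ from the treated cells in auxinole as well as in IAA, so loss of SRCAP, IAA itself and absence of auxinole cannot be told apart within those tables.

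Serine is built from a glycolytic intermediate in 3 steps, by PHGDH, PSAT1 and PSPH. SHMT2 then splits serine in the mitochondrion into glycine and a one-carbon unit on tetrahydrofolate, which MTHFD2 and MTHFD1L pass on as formate for purine and thymidylate synthesis. Most of these genes, with the asparagine synthetase gene Asns and the proline genes Pycr1 and Aldh18a1, are known targets of ATF4, the transcription factor of the amino acid response, and are highly expressed in dividing cells such as ES cells.

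ATF4 acts with C/EBP proteins at a composite element, for which the letters TGATGNAA stand here. RefSeq promoter windows (GRCm38.p6, 250 bases before to 50 after the start) were at hand for 9 of the 10 members, and Aldh1l2 had none. On either strand, TGATGNAA was in the windows of 2 members, Asns and Pycr1, against 3.97% of 32851 mouse promoter windows. The E-box CACGTG was in 1, Aldh18a1, against 7.15% of all windows, and the cAMP response element TGACGTCA was in 0 of the 9 against 1.79%. The letters TGATGNAAC or TGATGNAAT were in the same 2 members, Asns and Pycr1, and in 1.77% of all windows. The 3 windows that hold one of the letters searched are shown with that of Mthfd2, the member with the lowest exon fold changes at 4 h, which holds none. Capitals mark the match, and all 4 run 5′ to 3′ on the minus strand, the strand of the gene.
Asns, chr6:7693160-7693459: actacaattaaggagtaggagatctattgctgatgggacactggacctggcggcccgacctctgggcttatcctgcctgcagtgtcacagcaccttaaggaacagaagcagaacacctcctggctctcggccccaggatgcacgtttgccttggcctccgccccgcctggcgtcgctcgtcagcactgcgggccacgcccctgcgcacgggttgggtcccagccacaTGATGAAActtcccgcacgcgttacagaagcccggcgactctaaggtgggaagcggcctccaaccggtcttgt
Pycr1, chr11:120643699-120643998: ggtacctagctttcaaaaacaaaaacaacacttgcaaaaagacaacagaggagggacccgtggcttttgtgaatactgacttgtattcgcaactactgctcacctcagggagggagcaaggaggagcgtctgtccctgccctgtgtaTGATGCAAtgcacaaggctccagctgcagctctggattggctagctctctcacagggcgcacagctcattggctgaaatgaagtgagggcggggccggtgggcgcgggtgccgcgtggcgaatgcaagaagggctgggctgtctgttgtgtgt
Aldh18a1, chr19:40588414-40588713: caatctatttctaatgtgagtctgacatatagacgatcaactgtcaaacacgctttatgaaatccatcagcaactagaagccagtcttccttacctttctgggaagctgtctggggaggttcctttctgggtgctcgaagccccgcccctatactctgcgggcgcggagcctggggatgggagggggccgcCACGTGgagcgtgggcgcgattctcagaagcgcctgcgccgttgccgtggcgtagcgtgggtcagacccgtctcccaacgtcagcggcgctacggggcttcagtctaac
Mthfd2, chr6:83317555-83317854: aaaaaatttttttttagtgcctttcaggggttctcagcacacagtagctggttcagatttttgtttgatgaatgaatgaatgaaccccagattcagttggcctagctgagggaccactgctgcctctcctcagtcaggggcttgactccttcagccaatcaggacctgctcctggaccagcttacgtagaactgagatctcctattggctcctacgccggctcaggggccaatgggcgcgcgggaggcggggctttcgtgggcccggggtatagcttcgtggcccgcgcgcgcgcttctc
The match began 23 bases before the start in Asns, 103 before it in Pycr1 and 59 before it in Aldh18a1. A match of letters is not a binding site, and its absence says only that the letters are not in this window. The GENCODE model of Mthfd2, at chr6:83305691-83325908, reaches further upstream than the start used by RefSeq. Asns lies at chr6:7675169-7693254, Psat1 at chr19:15904678-15947337, Phgdh at chr3:98313170-98339990 and Aldh18a1 at chr19:40550257-40588463, all on the minus strand of the mm10 build. In 7 of the 10 members, Psat1, Psph, Shmt2, Mthfd2, Mthfd1l, Aldh1l2 and Aldh18a1, another annotated gene overlaps the gene's span, so part of their counts may belong to it.

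Exon columns summed to between 12236493 and 60214521 counts a library. Intron columns of CGR8, LG1, wtSRCAP and cdSRCAP libraries summed to between 2006573 and 7724200, and held almost no exonic reads: on genes with 1 exon they reached 0.02% to 0.06% of the exon column. In EG1 libraries and those of the time course they reached 57.4% to 80.8%, so those intron columns hold exonic reads as well and do not follow unspliced RNA alone. The libraries expressed 10 of 10 ES cell markers above 1 CPM (exon counts relative to the TMM-scaled library total) everywhere, with a summed level of 1918 to 5305 CPM, against 38.9 to 154 CPM for 12 markers of differentiated cells. After 4 h of IAA, their median exon log2 fold change was -0.06 in CGR8, 0.47 in SYAT, 1.01 in wtSRCAP and 0.45 in cdSRCAP cells. Medians of the ES cell markers were 0.04, 0.11, 0.27 and 0.16 in the same order. Those of all genes were -0.00030, 0.018, -0.024 and 0.022. At 6 h in SYAT the markers of differentiated cells were at 0.58 and those of ES cells at 0.32. No marker of either list passed the adjusted threshold in edgeR in these comparisons. Their part in the results was not tested. Srcap RNA was present throughout, at 21.3 to 24.1 CPM in CGR8 libraries and 39.9 to 60.2 CPM in the time course, and does not report on the degron, which acts on the protein. Replicate 2 of SYAT 6 h stood apart, with 10.2% of its exon counts in 1 gene and 0.53% on mitochondrial genes, against 1.80% to 2.44% in the other 9 libraries of that table. In wtSRCAP and cdSRCAP cells, the top gene took 12.0% to 23.9% of exon counts in replicate 1 and 4.42% to 6.71% in replicate 2.

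All 10 genes were expressed, and passed the filter on low counts in every exon table. On a per-length scale (CPM per kilobase of exon), Psat1, which transfers the amino group in serine synthesis, was at 46.0 ± 5.96 (SD, n = 2) in SYAT controls. Shmt2 followed at 43.3 ± 1.63 and Phgdh, the entry enzyme of the pathway, at 39.7 ± 7.62, and the libraries of each of these neighbours overlapped. Asns came next at 29.4 ± 2.89, overlapping with the formate-producing Mthfd1l at 27.5 ± 3.76. Below them lay the mitochondrial dehydrogenase Mthfd2 at 18.9 ± 3.12, the proline entry enzyme Aldh18a1 at 9.97 ± 1.52, the last serine enzyme Psph at 3.76 ± 0.0042, and the last proline enzyme Pycr1 at 2.63 ± 0.131. Aldh1l2, which turns the formyl unit into CO2 and NADPH, was lowest at 0.157 ± 0.0267. From Asns and Mthfd1l down, no member's libraries overlapped with those of the member above it. CGR8 controls had the same top and bottom, with Psat1 at 65.7 ± 4.32 and Aldh1l2 at 0.127 ± 0.0145, but Asns there was at 60.7 ± 5.74, and its libraries overlapped with those of Psat1 above and of Phgdh below.

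IAA was given to CGR8 cells to show what the compound does without a degron. Of the serine genes, Phgdh was at 173 and 126 CPM in the exon columns of the controls and at 117 and 102 CPM after IAA, Psat1 at 292 and 266 against 255 and 268 CPM, and Psph at 41.2 and 26.3 against 24.3 and 25.1 CPM. Phgdh and Psph lay below both controls in both treated libraries, and Psat1 overlapped. Mthfd2 was at 77.7 and 83.2 CPM in controls and at 53.1 and 55.1 CPM after IAA, a log2 fold change of -0.57 ± 0.13 (SE) with unadjusted p = 0.00226 by edgeR's quasi-likelihood test. Mthfd1l was at 194 and 160 against 135 and 127 CPM (log2 fold change -0.43 ± 0.14, unadjusted p = 0.015), while Shmt2 was at 178 and 171 against 173 and 142 CPM. Aldh1l2 was at 1.03 and 0.875 against 0.868 and 0.614 CPM. In this mitochondrial branch the groups were apart for Mthfd2, Mthfd1l and Aldh1l2 and overlapped for Shmt2. Asns was at 177 and 155 against 151 and 155 CPM, with a log2 fold change of -0.12 and a 95% interval of -0.42 to 0.19. Aldh18a1 was at 63.9 and 59.9 against 48.2 and 42.9 CPM (log2 fold change -0.44 ± 0.14, unadjusted p = 0.0127), and Pycr1 at 17.0 and 19.3 against 13.7 and 15.9 CPM.

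All 10 members had a log2 fold change below 0 in CGR8 exon columns, with a median of -0.40, against 50% of all 20250 genes tested and a median of -0.00030 over them. None of the 10 passed an absolute log2 fold change of 0.5 with an adjusted p under 0.05 in edgeR, a rule that 0.00988% of all genes passed. At an unadjusted p under 0.05, 4 of 10 were lower (Phgdh, Mthfd2, Mthfd1l and Aldh18a1) and 0 higher, against 4.12% and 5.04% of all genes. DESeq2 called 1 member, Mthfd2, among 0.691% of genes. Both treated libraries lay below both controls for 7 of the 10, all but Psat1, Shmt2 and Asns, as they did for 20.6% of all genes. Control replicate 1 stood apart, with 8.54% of its exon counts in 1 gene and 0.575% on mitochondrial genes, against 2.58% to 4.64% and 1.06% to 2.01% in the other 3 libraries. With that control alone, without control replicate 2, log2 fold changes were -0.66 for Phgdh, -0.73 for Psph, -0.52 for Mthfd2 and -0.56 for Mthfd1l. Without control replicate 1 they were -0.19, -0.08, -0.61 and -0.27 in the same order. In the introns all 10 were below 0 as well, with a median of -0.53 against 0.0097 for all genes, of which 48.9% were below 0.

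In the intron columns of CGR8 cells, both treated libraries lay below both controls for 9 of the 10 members, all but Aldh1l2, as they did for 17.5% of all genes. Psat1, Shmt2 and Asns, whose exon counts overlapped, were among the 9. Psat1 introns were at 165 and 166 CPM in controls and at 106 and 97.6 CPM after IAA (log2 fold change -0.70 ± 0.15, unadjusted p = 0.00124). Asns introns were at 153 and 166 against 105 and 106 CPM (-0.60 ± 0.15, unadjusted p = 0.00344). Aldh18a1 introns were at 99.0 and 103 against 55.4 and 71.4 CPM (-0.67 ± 0.19, unadjusted p = 0.00735). In each of these 3 genes both treated libraries lay below both controls. Phgdh (-0.40) and Mthfd2 (-0.78) were lower at an unadjusted p under 0.05 too, which makes 5 of 10 members lower and 0 higher, against 2.68% and 2.57% of 13634 genes. No intron change of a member passed the adjusted threshold in edgeR, which 0.022% of genes passed, and DESeq2 called 1, Psat1, among 0.323%. Without control replicate 1, Psat1 was at -0.71 and Mthfd2 at -0.44. Without control replicate 2, Psat1 was at -0.69, Mthfd2 at -1.07 and Aldh18a1 at -0.63.

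**Figure D1:**
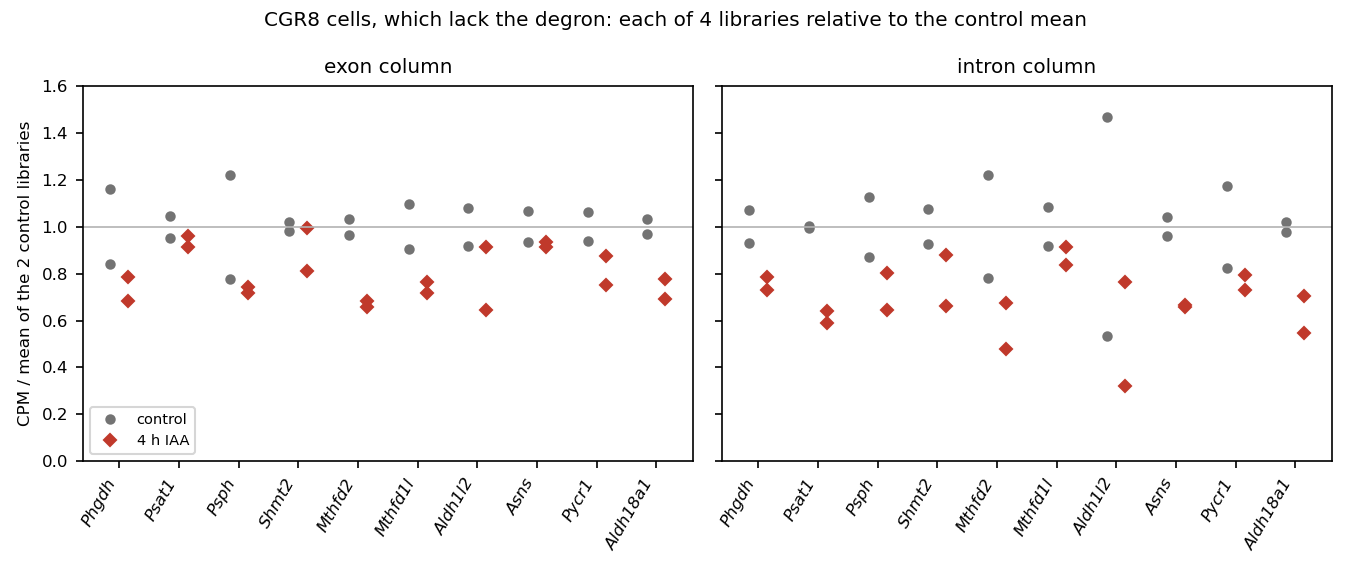
Exon (left) and intron (right) CPM of the 10 genes in each CGR8 library, divided by the mean of the 2 control libraries (vertical axis, linear, no unit); grey circles are controls and red diamonds are cells after 4 h of IAA. Both IAA libraries of Phgdh, Psph, Mthfd2, Mthfd1l, Pycr1 and Aldh18a1 lie below both controls in either panel, while Psat1 and Asns overlap with the controls on the left and lie below them on the right.

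In the SYAT time course, Mthfd2 and Aldh18a1 were lower from 4 h on. Mthfd2 exon counts were at 73.7 and 58.3 CPM in controls, 65.4 and 56.6 at 2 h, 47.9 and 40.8 at 4 h, 45.8 and 38.7 at 6 h, and 48.5 and 36.1 CPM at 8 h. Aldh18a1 was at 45.0 and 36.2 CPM in controls, 37.9 and 32.3 at 2 h, 29.9 and 26.4 at 4 h, 24.8 and 30.2 at 6 h, and 25.9 and 21.6 CPM at 8 h. At 2 h both genes overlapped with the controls, and at 4, 6 and 8 h both libraries of each gene lay below both controls. Of all genes, 24.1%, 22.2% and 24% lay below both controls in this way at 4, 6 and 8 h. For Mthfd2 the log2 fold change was -0.11 at 2 h (95% interval -0.54 to 0.31), -0.57 ± 0.19 at 4 h, -0.64 ± 0.19 at 6 h and -0.64 ± 0.19 at 8 h, with unadjusted p of 0.0131, 0.00726 and 0.00724 at the last 3 times. For Aldh18a1 it was -0.21 at 2 h (-0.62 to 0.20), -0.53 ± 0.18 at 4 h, -0.56 ± 0.18 at 6 h and -0.78 ± 0.18 at 8 h, with unadjusted p of 0.0162, 0.0119 and 0.00174. Between 2 h and 8 h of IAA, which both lack auxinole, Mthfd2 was lower by a log2 fold change of -0.53 ± 0.19 (unadjusted p = 0.0199) and Aldh18a1 by -0.57 ± 0.18 (unadjusted p = 0.0116).

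No member passed the adjusted threshold in the exon columns at any time in edgeR, which 0.0677% of all genes did at 6 h, 0.00521% at 8 h and 0% at the other times. At an unadjusted p under 0.05, 0 of 10 members were lower at 2 h (2.55% of all genes), and 2 of 10 were at 4 h (6% of genes), 6 h (8.21%), 8 h (8.44%) and between 2 h and 8 h (3.41%), namely Mthfd2 and Aldh18a1 each time. No member was higher at that level, against 1.37% to 7.93% of genes. DESeq2 called Aldh18a1 at 8 h, among 2.32% of genes. Aldh18a1 at 8 h was at -0.78 and -0.79 when replicate 1 or replicate 2 of the 6 h group was left out. The 6 h libraries enter that comparison only through the shared scaling and spread, so these fits do not check the 8 h value.

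The other members moved little or unevenly. Asns had a log2 fold change between -0.01 and 0.10 at the 4 times, with libraries between 74.7 and 91.9 CPM, and its 95% interval at 8 h was -0.29 to 0.30. Shmt2 lay between -0.14 and -0.02, and at 8 h its interval was -0.42 to 0.14. Psat1 was at 214 and 178 CPM in controls and at 206 and 134 CPM at 8 h, a log2 fold change of -0.20 (-0.69 to 0.29). For Psat1, replicate 1 exceeded replicate 2 at each of the 5 conditions. Psph was at 16.3 CPM in either control and at 12.7 CPM in either 8 h library (log2 fold change -0.36, -0.75 to 0.03). Pycr1 stayed between 9.11 and 12.0 CPM in the 10 libraries, and Aldh1l2 between 0.553 and 1.32 CPM. At 6 h, Phgdh was at 105 CPM in replicate 1 and 174 in replicate 2, and Mthfd1l at 128 and 179 CPM. The higher library of each pair was the replicate 2 that stood apart in its top gene and mitochondrial share. Without 6 h replicate 1, Phgdh was at 0.83 and Mthfd1l at 0.56 at 6 h, and without 6 h replicate 2 at 0.10 and 0.08. At 4 h and 8 h their log2 fold changes lay between -0.03 and 0.02. Outside Mthfd2 and Aldh18a1, Psph was below both controls in both libraries at 4, 6 and 8 h, as were 22.2% to 24.1% of genes.

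**Figure D2:**
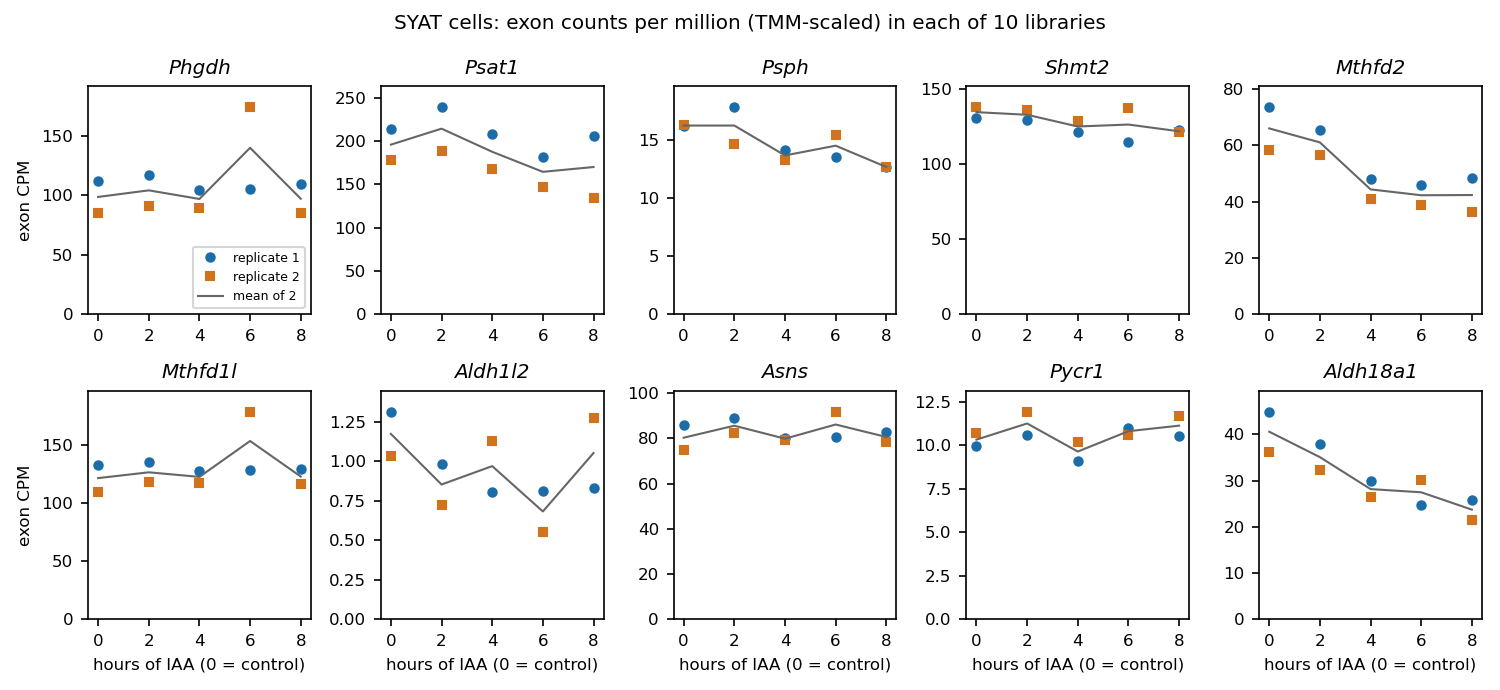
Exon CPM (vertical axes, linear, from 0) of the 10 genes in SYAT controls (0) and after 2, 4, 6 and 8 h of IAA (horizontal axes); circles and squares are replicates 1 and 2 and the line joins the means of 2. Mthfd2 and Aldh18a1 lie below their controls from 4 h on, and replicate 2 at 6 h is high for Phgdh (174 CPM) and Mthfd1l (179 CPM).

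In the intron columns of the time course, which hold exonic reads too, Mthfd2 (-0.61) and Aldh18a1 (-0.56) were again lower at 4 h, and Shmt2 joined them, at 78.0 and 86.2 CPM in controls and 51.6 and 61.6 CPM at 4 h (log2 fold change -0.54 ± 0.22, unadjusted p = 0.0386). At 8 h the 3 genes were at -0.69, -0.78 and -0.56. Psat1 was at 204 ± 28 CPM (SD, n = 2) in controls and 189 ± 35.4 CPM at 4 h, and these groups overlapped. The Asns column was 0 in all 10 libraries although its exon column was not, so Asns introns could not be tested, and 9 of 10 members were. Of these 9, 3 were lower at an unadjusted p under 0.05 at 4 h and at 8 h, against 5.87% and 7.85% of genes, and 2 at 6 h (7.98%). At 2 h it was 0 (3.29%), and between 2 h and 8 h 2 were lower (2.21%), Mthfd2 and Aldh18a1. Aldh1l2 was at 1.21 and 0.949 CPM at 2 h and at 1.45 and 3.34 CPM at 8 h (log2 fold change 1.16 ± 0.47, unadjusted p = 0.0388, where 1.54% of genes were higher at that level), and at 0.45 (unadjusted p = 0.363) without 8 h replicate 2. In this column Mthfd1l was at 223 and 204 CPM in controls. Its 8 treated libraries, at 225 to 305 CPM, were all above both controls, as 20.2% to 21.6% of genes were at each time. Its log2 fold changes were 0.16, 0.20, 0.37 and 0.32 at the 4 times, the lowest unadjusted p was 0.0572, and none passed. Psph lay below both controls at 4, 6 and 8 h (-0.24, -0.16 and -0.29), also without passing. Between 23.5% and 24.6% of genes lay below both controls at these times. None of the 9 passed the adjusted threshold in edgeR, which 0.0136% of genes passed at 6 h and 0.00679% at 8 h, and DESeq2 called Aldh18a1 at 8 h, among 3.22%.

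The wtSRCAP and cdSRCAP cells ask whether active or inactive SRCAP, supplied from a transgene, alters the response to IAA. Here Mthfd2 had the lowest exon fold change of the members in either cell type. It was at 79.7 and 97.0 CPM in wtSRCAP controls and 28.2 and 50.4 CPM after IAA, a log2 fold change of -1.16 ± 0.28 (unadjusted p = 0.00252). In cdSRCAP cells it was at 57.4 and 68.5 against 35.8 and 37.4 CPM, or -0.78 ± 0.28 (unadjusted p = 0.0209). Aldh18a1 was at 58.1 and 60.9 against 34.0 and 39.2 CPM in wtSRCAP cells (-0.70 ± 0.23, unadjusted p = 0.0123) and at 42.6 and 53.6 against 29.9 and 38.0 CPM in cdSRCAP cells (-0.50 ± 0.23, unadjusted p = 0.0517). In all 4 cases both treated libraries were below both controls, as they were for 19.5% of all genes in wtSRCAP and 19% in cdSRCAP cells. Replicate 1 of wtSRCAP after IAA stood apart, with the lowest depth of the 8 libraries (12236493 exon counts), a TMM factor of 0.838, and 0.215% of exon counts on mitochondrial genes against 0.606% to 0.808% in the other 7. Without it the exon fold changes in wtSRCAP cells were -0.78 for Mthfd2 (unadjusted p = 0.0112) and -0.58 for Aldh18a1 (unadjusted p = 0.0541). The difference between the responses, cdSRCAP minus wtSRCAP, was 0.38 for Mthfd2 (95% interval -0.52 to 1.27) and 0.20 for Aldh18a1 (-0.52 to 0.91), and 0 of 10 members passed the test of that difference in edgeR or DESeq2, at an unadjusted p under 0.05 also 0, against 0.785% of genes.

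In the exon columns 0 of 10 members passed the adjusted threshold in edgeR for either response (0.00523% of genes in wtSRCAP, 0% in cdSRCAP), and at an unadjusted p under 0.05, 2 were lower in wtSRCAP cells (4.48% of genes) and 1 in cdSRCAP cells (3.99%). Replicate numbers were taken to pair these exon libraries by a check on the data, which the introns of the same libraries did not pass. With the replicate block edgeR called Mthfd2 (-1.19, adjusted p = 0.000648) and Aldh18a1 (-0.71, adjusted p = 0.0165) in wtSRCAP cells. There it called 3.2% of genes, against 0.00523% without the block. In cdSRCAP cells it then called Mthfd2 (-0.77, adjusted p = 0.0191), among 1.81% of genes. Asns was the member whose exon counts differed most between replicate numbers, and they were at 61.6, 50.1, 39.1 and 51.6 CPM in the 4 replicate 1 libraries and at 107, 110, 137 and 138 CPM in the 4 of replicate 2. These replicate ranges of Asns did not overlap, whereas the log2 fold changes of Asns with IAA were -0.07 (-1.49 to 1.35) in wtSRCAP and 0.11 (-1.31 to 1.52) in cdSRCAP cells. The exon intervals of the other 8 members, and that of Aldh18a1 in cdSRCAP cells, spanned 0.

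**Figure D3:**
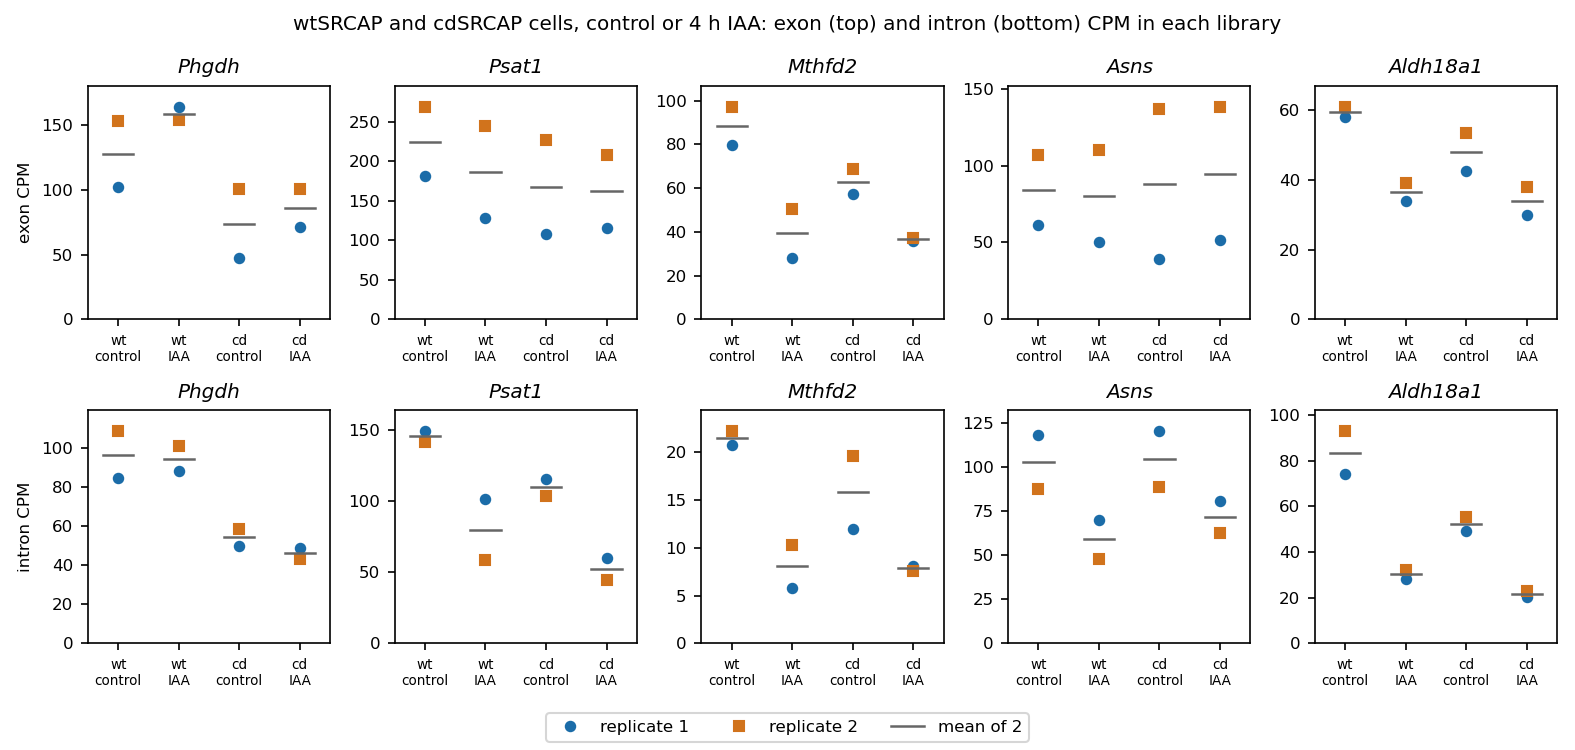
Exon (top) and intron (bottom) CPM of 5 genes in wtSRCAP and cdSRCAP cells, with auxinole (control) or 4 h of IAA; circles and squares are replicates 1 and 2, bars their means, and vertical axes are linear from 0. Mthfd2 and Aldh18a1 are lower after IAA in all panels, Psat1 and Asns in the lower row, and Phgdh is lower in cdSRCAP than in wtSRCAP introns in every library.

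The introns of these cells changed most for Aldh18a1. They were at 74.1 and 92.9 CPM in wtSRCAP controls and at 28.2 and 32.2 CPM after IAA, so Aldh18a1 fell, with a log2 fold change of -1.46 ± 0.22 (adjusted p = 0.0375, edgeR's quasi-likelihood test), to 0.363 of the control. In cdSRCAP cells they were at 49.1 and 55.5 against 20.1 and 23.0 CPM (-1.27 ± 0.22, adjusted p = 0.0554). Mthfd2 introns were at 20.8 and 22.2 against 5.84 and 10.3 CPM in wtSRCAP cells (-1.37 ± 0.41, unadjusted p = 0.00813) and at 12.0 and 19.6 against 8.09 and 7.61 CPM in cdSRCAP cells (-1.01 ± 0.40, unadjusted p = 0.0311). The 2 genes were below their controls in every treated library, as were 21.1% of all genes in wtSRCAP and 24.6% in cdSRCAP cells. Psat1 introns were at 149 and 142 against 101 and 58.4 CPM in wtSRCAP cells (-0.89 ± 0.26, unadjusted p = 0.00677) and at 116 and 104 against 59.8 and 44.9 CPM in cdSRCAP cells (-1.07 ± 0.26, unadjusted p = 0.00214). Asns introns were at 118 and 87.3 against 70.1 and 47.7 CPM (-0.82 ± 0.27, unadjusted p = 0.0123) and at 120 and 88.4 against 80.9 and 62.6 CPM (-0.54 ± 0.26, unadjusted p = 0.0638). For Psat1 and Asns, too, no treated library reached a control of its cell type, whereas their exon fold changes had intervals that spanned 0. Whether the intron and exon fold changes of a gene differed was not tested. Psph introns were at 13.2 and 17.6 against 8.50 and 12.2 CPM in wtSRCAP cells (-0.55, -1.41 to 0.30) and at 12.8 and 16.3 against 10.8 and 9.14 CPM in cdSRCAP cells (-0.55, -1.38 to 0.29), so its treated libraries lay below the controls of their cell type as well, without passing an unadjusted p of 0.05. Mthfd1l introns stayed between 710 and 879 CPM in the 8 libraries.

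In the introns, 1 of 10 members passed the adjusted threshold in wtSRCAP cells, among 0.299% of genes, and 0 in cdSRCAP cells in edgeR (0.236% of genes), where DESeq2 called 2, Psat1 and Aldh18a1, among 1.37%. In wtSRCAP cells DESeq2 called 1, Aldh18a1, among 1.43%. In the introns none of the 10 responses differed between the cell types at an unadjusted p under 0.05 (2.54% of genes), with differences of 0.19 (-0.50 to 0.88) for Aldh18a1 and -0.18 (-0.99 to 0.62) for Psat1. At an unadjusted p under 0.05, 4 were lower in wtSRCAP cells (6.61% of genes) and 3 in cdSRCAP cells (7.49%), and none was higher. The call of Aldh18a1 rests on the full set of 8 libraries: with any 1 left out, its adjusted p was 0.0518 to 0.175 and its log2 fold change -1.62 to -1.29. Without replicate 1 of wtSRCAP after IAA, the library that stood apart, Aldh18a1 was at -1.38 (adjusted p = 0.142), Mthfd2 at -1.07 (unadjusted p = 0.0339) and Psat1 at -1.33 in wtSRCAP introns. Without replicate 2 of wtSRCAP after IAA, Psat1 was at -1.07 and Aldh18a1 at -1.27 in cdSRCAP cells. That library enters the cdSRCAP comparison only through the shared scaling and spread, so this fit does not check those values.

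Phgdh was the member with the largest difference between the cell types. Its exon counts were at 103 and 154 CPM in wtSRCAP controls and at 47.7 and 101 CPM in cdSRCAP controls, and after IAA at 164 and 154 against 71.5 and 101 CPM. The log2 difference, cdSRCAP minus wtSRCAP, was -0.79 ± 0.36 in controls (unadjusted p = 0.0526) and -0.89 ± 0.36 after IAA (unadjusted p = 0.0333). In the introns Phgdh was at 84.5 and 109 against 50.1 and 58.7 CPM in controls (-0.83 ± 0.20, unadjusted p = 0.00223), and at 88.2 and 101 against 49.0 and 43.4 CPM after IAA (-1.04 ± 0.20, unadjusted p = 0.00053). The cdSRCAP libraries lay below the wtSRCAP libraries in every one of these comparisons, as they did for 14.1% to 20.1% of genes in each. Most members shared this direction. In controls 9 of 10 had exon estimates below 0 (median -0.33) and 8 of 10 intron estimates (median -0.41). After IAA it was 8 of 10 in either column (medians -0.20 and -0.18), and 47.1% to 52.1% of all genes were below 0. In control introns 6 of 10 members lay below without overlap (16.2% of genes), and in control exons 4 of 10 (14.1%). With the replicate block in the exon columns, edgeR called Phgdh in controls (-0.82, adjusted p = 0.0248, among 0.91% of genes) and after IAA (-0.93, adjusted p = 0.00914, among 1.41% of genes). Without the block it called 0 of 10 members in either (0% and 0.00523% of genes), and 0 and 1 were lower at an unadjusted p under 0.05 (1.32% and 2.19% of genes), in the exon columns. Each transgene is 1 clone, so the form of SRCAP and the clone cannot be told apart.

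In the introns of the same comparison, Aldh18a1 was lower in cdSRCAP controls as well (-0.67 ± 0.21, unadjusted p = 0.00997), and Psat1 after IAA (-0.59 ± 0.26, unadjusted p = 0.0472). This made 2 of 10 members lower in controls (2.16% of genes) and 2 after IAA (4.39%), with 0 past the adjusted threshold in edgeR (0.102% and 0.0157% of genes). DESeq2 called Phgdh after IAA, among 0.897%.

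**Figure D4:**
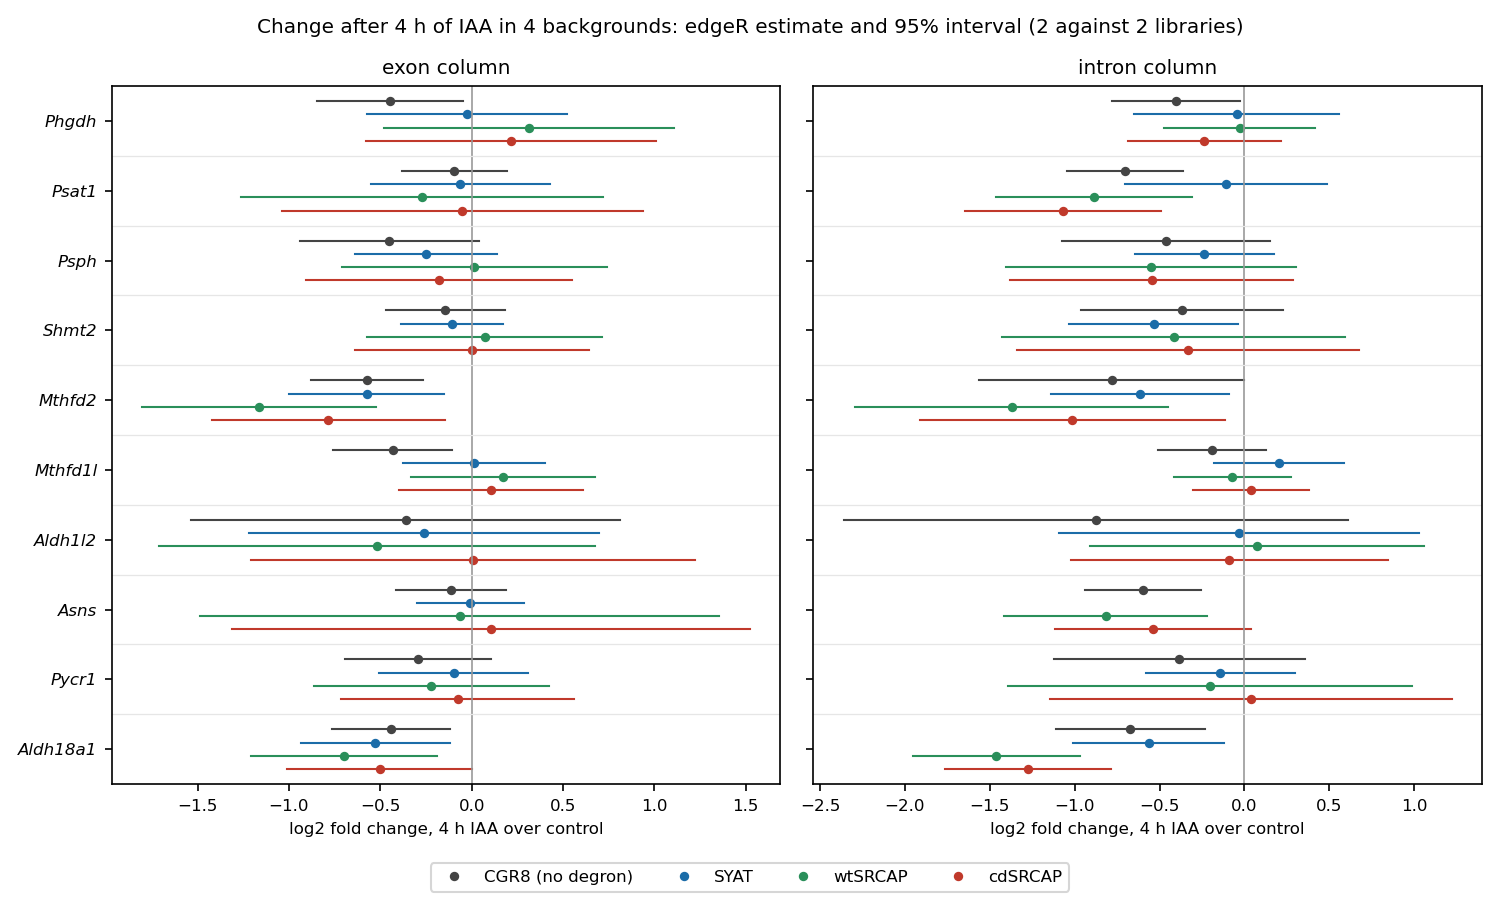
Log2 fold changes of the 10 genes after 4 h of IAA over control (horizontal axes) in CGR8, SYAT, wtSRCAP and cdSRCAP cells, from the exon (left) and intron (right) columns; points are edgeR estimates and lines 95% intervals, 2 against 2 libraries each. Mthfd2 and Aldh18a1 have estimates below 0 in all 4 backgrounds and both columns, while exon estimates of Asns lie between -0.12 and 0.11. The SYAT intron column holds exonic reads too, so its estimates partly repeat the exon ones, and Asns introns there could not be tested.

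CGR8, SYAT and the transgenic cells are in separate tables, so whether the response of Mthfd2 or Aldh18a1 differed between cells with and without the degron was not tested. Their 4 h exon log2 fold changes were -0.57 and -0.44 in CGR8 cells and -0.57 and -0.53 in SYAT cells, and all 4 intervals lay below 0.

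In sorted cells no member was called after 1 h of IAA in the exon columns. In the exon columns Mthfd2 was at 86.0 and 149 CPM in EG1 controls and 91.2 and 141 CPM after IAA, and at 84.2 and 145 against 98.0 and 141 CPM in LG1. Aldh18a1 was at 87.2 and 108 against 97.2 and 104 CPM in EG1 and at 86.7 and 99.1 against 86.4 and 107 CPM in LG1. The groups overlapped for both genes. Over the 10 members, exon log2 fold changes lay between -0.03 and 0.11 in EG1 and between 0.05 and 0.24 in LG1. The 95% intervals were -0.86 to 0.83 for Mthfd2 and -0.35 to 0.44 for Aldh18a1 in EG1. None of the 10 passed an absolute log2 fold change of 0.25 with an unadjusted p under 0.05 in edgeR, the thresholds used for these cells, which 1.22% of genes passed in EG1 and 1.02% in LG1, and DESeq2 called none in the exon columns either. In LG1 against EG1 controls, 0 of 10 differed at an unadjusted p under 0.05 (1.44% of genes), with estimates between -0.19 and 0.12, and none of the 10 IAA responses differed between LG1 and EG1 at that level (0.699% of genes).

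In sorted cells the replicates lay further apart than the treatments. Psat1 exon counts were at 288 to 329 CPM in the 4 libraries of replicate 1 and 471 to 488 CPM in the 4 of replicate 2, and Shmt2 at 113 to 134 and 186 to 212 CPM. The replicates did not overlap for these genes, nor for Phgdh, Psph, Mthfd2, Mthfd1l, Asns and Aldh18a1, whereas Pycr1 and Aldh1l2 overlapped. Replicate 2 lay above replicate 1 without overlap for these 8 of 10 members and for 20% of all genes. Replicate numbers were taken to pair these libraries by the same check on the data. With the replicate block, exon calls remained at 0 of 10. In LG1 introns the block gave Aldh1l2 (0.78, unadjusted p = 0.0226) and Psat1 (0.31, unadjusted p = 0.0302) as higher, among 9.02% of genes called in either direction, where the test without it called 0 of 10 among 3.94%. Aldh1l2 introns were at 5.07 and 9.23 CPM in LG1 controls and at 10.2 and 14.1 CPM after IAA, and were also called by DESeq2 (among 3.73% of genes). Their log2 fold change was 1.26 without control replicate 2 of LG1 and 0.99 without IAA replicate 1. Those fits drop the higher control (9.23 CPM) or the lower treated library (10.2 CPM), which raises the difference. Leaving out control replicate 1 or IAA replicate 2 instead lowers it, by values not given here. In EG1 introns 0 of 10 were called, with or without the block, against 2.28% of genes without it. These intron fits shared scaling and spread between EG1 columns, which hold exonic reads, and LG1 columns, which hold almost none.

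**Figure D5:**
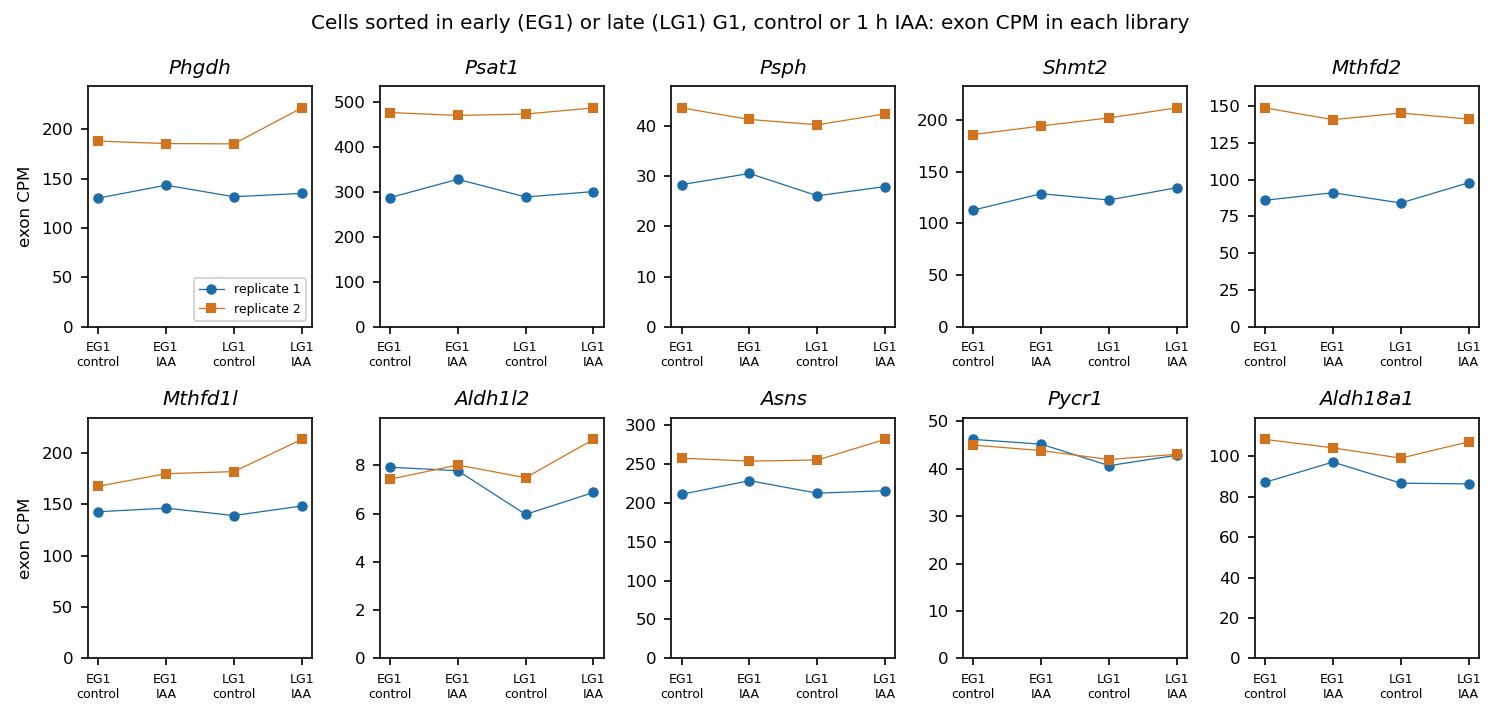
Exon CPM (vertical axes, linear, from 0) of the 10 genes in EG1 and LG1 libraries with auxinole (control) or 1 h of IAA; circles and squares joined by lines are replicates 1 and 2. Replicate 2 lies above replicate 1 in all 4 groups for 8 of the genes, and no gene separates IAA from control in EG1.

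Genes of neighbouring pathways were counted in 6 lists, the cytosolic folate cycle, other mitochondrial folate genes, glycine cleavage, the methionine cycle with transsulfuration, purine synthesis, and other proline and glutamate genes, 75 genes in all. In CGR8 exon columns 2 of 69 tested were lower and 5 higher at an unadjusted p under 0.05, and none passed the adjusted threshold in edgeR. In SYAT cells 2 of 68 were lower and 1 higher at 4 h, and 4 lower and 3 higher at 8 h. In wtSRCAP cells 2 of 66 were lower and 3 higher, and in cdSRCAP cells 2 lower and 0 higher. These shares were 3.03% to 10.3%, and those of all genes in the same comparisons 5.64% to 13.6%. At 6 h 4 were lower and 11 higher, 22.1% of 68 against 16.1% of all genes, in the group with the library that stood apart. In each of the exon comparisons at 4 h or later, 1 of the lower genes was Gpt2, which interconverts alanine and glutamate with their keto acids, with log2 fold changes of -0.41 in CGR8, -0.81 at 4 h, -0.59 at 6 h and -0.79 at 8 h in SYAT, -0.84 in wtSRCAP and -0.62 in cdSRCAP cells (chosen after its values were seen).

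Regulators of the amino acid and stress response were counted beside them. Of 15 such genes, 10 were lower at an unadjusted p under 0.05 in CGR8 exon columns, against 4.12% of all genes, and 0 higher, with a median log2 fold change of -0.47. Atf4, the gene of the factor itself, fell, with a log2 fold change of -1.53 ± 0.15 (adjusted p = 0.0444, edgeR). In SYAT cells 2 of 15 were lower at 2 h (Atf4 -0.48 and Chac1 -1.94), against 2.55% of all genes, and 4 at 4, 6 and 8 h (6%, 8.21% and 8.44%). In wtSRCAP cells 3 were lower (4.48%) and in cdSRCAP cells 4 (3.99%), and none was higher. Chac1, a glutathione-degrading enzyme induced by ATF4, fell in wtSRCAP cells, with a log2 fold change of -3.90 ± 0.38 (adjusted p = 0.0367, edgeR). Atf4 was at -0.48 at 4 h in SYAT, -0.96 in wtSRCAP and -1.02 in cdSRCAP cells, and passed the adjusted threshold in none of these. In cdSRCAP against wtSRCAP controls Atf4 was at -0.84 (unadjusted p = 0.00395), and 2 of the 15 were lower (1.32% of all genes) and 1 higher. After 1 h, in sorted cells, 0 of the 15 differed in the exon columns at an unadjusted p under 0.05. Many members of this list and of the 10 genes are known to respond to the same factor, so they are not independent of each other.

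Over the 10 time course libraries, the members' mean standardised exon level was followed most closely, among 9398 other genes with an average log2 CPM over 3, by Snx1 (Pearson r = 0.969), Nars (0.958), Pck2 (0.954), Spg21 (0.947) and Alg9 (0.946). Within the set, Psph (0.885), Aldh18a1 (0.875), Mthfd2 (0.736) and Asns (0.709) had the highest r with that mean, and Aldh1l2 (-0.0881) and Pycr1 (-0.113) the lowest. These are descriptions over 10 libraries that share time points and replicates, and the mean includes each member itself.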

How the data were processed

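Nuclear RNA was sequenced from directional libraries (the strand setting used in counting is not given in the sources used here) in 30 samples of mouse ES cells, 2 per group. The authors used STAR for alignment (mm10) and featureCounts with GENCODE vM25 for counting, and the deposited files hold raw counts per gene, 1 column per library for exons and 1 for introns (the gene body without exons). SAMtools 1.10, Picard and DESeq2 are named in the submitters' processing notes. Columns of the authors' own comparisons (DESeq2 fold changes and p-values) were not used.

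Genes passed edgeR's filterByExpr (minimum count 10, minimum total 15) and counts were scaled by TMM. Each table and column was fitted on its own, over all its groups, with edgeR 4.0.16's quasi-likelihood test in R 4.3.3 (limma 3.58.1) and Benjamini-Hochberg adjustment over all genes tested. DESeq2 1.42.0, RLE scaling, no filter, no fold threshold, only the groups compared, the replicate number as a block, introns minus exons, and each library left out in turn were the alternatives. Scripts were tested on simulated data, and figures were drawn with matplotlib 3.10.9 in Python 3.11.15.

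Calls needed an absolute log2 fold change over 0.5 and adjusted p under 0.05, or, in EG1 and LG1, over 0.25 and unadjusted p under 0.05, the thresholds of the study. Symbols were matched from GENCODE vM21, which held 55141 of 55401 identifiers and all 10 members. Replicate numbers were taken to pair libraries where all correlations of same-numbered deviations from the group means exceeded 0.1. They were 0.141 to 0.638 in sorted cells and 0.259 to 0.376 in wtSRCAP and cdSRCAP exons, which were paired by this check on the data. Elsewhere at least 1 pair was at or below that limit. The members, lists and thresholds were chosen with earlier results of these data known. All 10 members were described in every table, and the 5 nearest genes were taken by Pearson r with the members' mean z-score. List genes were named past the adjusted threshold. Atf4 and Chac1 are also given in comparisons where they did not pass it, and Gpt2 passed it in none. Libraries are biological duplicates by the study's methods, and p-values measure the spread between them. Exon depth ran from 12236493 to 60214521 counts.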

Additional observations from a re-analysis of the deposited data

How the results depend on the processing

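Of 4285 log2 fold changes of members recomputed under the alternatives, 4200 kept their call, 74 gained one, 9 lost one, 2 reversed, and 328 that passed no threshold changed sign. In the exon columns, DESeq2, no filter, and edgeR or DESeq2 with the replicate block each called 1 member in CGR8 cells in place of 0 (Mthfd2). At 8 h in SYAT cells DESeq2 and no filter called 1, and both fits with the replicate block called 2. At 6 h no filter and both block fits called 1, and at 4 h DESeq2 with the block called 1. Correlations of same-numbered libraries did not reach the limit for pairing in CGR8 cells (0.0736 in exons, 0.0596 in introns), in the time course (lowest -0.0359) or in wtSRCAP and cdSRCAP introns (lowest 0.0759). In the time course the pairs with the 6 h group were the low ones (exons -0.0359 to 0.0623), and the 6 pairs without it lay between 0.267 and 0.589 in exons and 0.26 and 0.639 in introns. With the block, edgeR called Mthfd2 at 6 h (-0.64, adjusted p = 0.0198) and 8 h (-0.64, adjusted p = 0.022) and Aldh18a1 at 8 h (-0.77, adjusted p = 0.0358) in exons. Both block fits called 2 members in wtSRCAP exons and 1 each in cdSRCAP exons and in cdSRCAP against wtSRCAP with and without IAA. In the introns, DESeq2 and no filter called 1 in CGR8, 2 in cdSRCAP and 1 in cdSRCAP against wtSRCAP after IAA, and DESeq2 1 in SYAT at 8 h and 1 in LG1. No filter called 3 in wtSRCAP introns and 1 between the controls. With the block, edgeR and DESeq2 called 3 in wtSRCAP, 2 in cdSRCAP, 2 in LG1 and 1 between the IAA groups, and DESeq2 1 between the controls and 1, 2 and 2 in SYAT at 4, 6 and 8 h. The block changed no other count of calls. The share of all genes called rose as well, from 0.00523% to 3.2% with the block in wtSRCAP exons. It rose from 3.94% to 9.02% with the block in LG1 introns, and from 0.00988% to 0.691% with DESeq2 in CGR8 exons. Counts given here without that share do not show that the members changed more than other genes. A fit of the wtSRCAP groups alone called 0 in place of 1. Introns minus exons called 1 in EG1 (Pycr1) and reversed Psat1 at 2 h (-0.72) and Mthfd2 between 2 h and 8 h (0.75). The cause of these shifts was not tested.

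A fit without 1 library leaves a group with a single library, so its calls are not listed here. The intron call of Aldh18a1 in wtSRCAP cells was lost in each such fit. With 2 libraries a group, intervals of single members reach 1 log2 unit or more in wtSRCAP, cdSRCAP and sorted cells.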
